A study of Mus musculus with 10 samples.

Results

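Amino acid transporters are described here across mouse bone marrow progenitors that had been immortalized by different oncogenes. They are the genes of 7 solute carrier families (Slc1, Slc3, Slc6, Slc7, Slc36, Slc38 and Slc43), chosen by symbol in the annotation of the array platform. Of 18193 genes on the array, 58 belong to these families, and 42 of the 58 had a probe set above a filter level on at least 3 of the 10 arrays, as had 14235 genes in all. The filter level lies just under the 40th percentile of all signals on the arrays, which is 369.3. By family, the numbers that passed were 4 of 7 for Slc1, 2 of 2 for Slc3, 10 of 18 for Slc6, 12 of 15 for Slc7, 4 of 4 for Slc36, 7 of 9 for Slc38 and 3 of 3 for Slc43. The rule takes whole families, so it also takes carriers of monoamines, creatine, taurine and nucleobases.

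RNA of 10 cultures was read on Affymetrix Mouse Genome 430 2.0 arrays, 1 culture per array: 1 culture immortalized by MLL-ENL, and 3 clones each for NUP98-NSD1, for HoxA9 with Meis1 (HoxA9+Meis1) and for HoxA9 alone. MLL-ENL joins a histone methyltransferase to a transcription elongation factor, and NUP98-NSD1 joins a nucleoporin to another histone methyltransferase. HoxA9 belongs to the homeobox transcription factors, and Meis1 is a cofactor of the same class that joins it on DNA. All cultures were primary marrow cells grown with stem cell factor and without GM-CSF, so every group carries an oncogene and no untransformed progenitors were among the samples used here. Neither the age and strain of the mice nor whether the clones came from separate animals is in the labels, so p-values measure the spread between these cultures, which may be technical.

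Cells take up amino acids through carriers with overlapping substrates. Some use the sodium or proton gradient, some exchange 1 amino acid for another, and several Slc7 light chains reach the membrane only when joined to a heavy chain of the Slc3 family. Proliferating blood cells depend on them for leucine, glutamine, arginine and cystine, and carriers of the lysosome also report amino acids to the growth kinase mTORC1. In bulk cultures, fewer cells of a type and less RNA per cell cannot be told apart.

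The promoters of 2 members are printed because these genes carry the largest fall and the largest rise between NUP98-NSD1 and HoxA9 cells. Each is the RefSeq window of 300 bases around the annotated start, from 250 bases before it to 50 after it, on the strand of the gene in build GRCm38.p6. Slc36a4 lies at chr9:15709488-15709787 (+) and Slc7a8 at chr14:54781837-54782136 (-). Capitals mark TGACAG, a motif of Meis proteins, found on either strand.
Slc36a4: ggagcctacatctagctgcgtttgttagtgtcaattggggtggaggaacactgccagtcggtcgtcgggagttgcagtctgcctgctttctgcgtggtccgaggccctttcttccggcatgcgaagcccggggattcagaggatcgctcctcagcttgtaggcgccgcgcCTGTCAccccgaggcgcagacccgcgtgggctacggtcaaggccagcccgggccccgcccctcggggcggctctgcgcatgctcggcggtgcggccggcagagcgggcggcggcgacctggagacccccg
Slc7a8: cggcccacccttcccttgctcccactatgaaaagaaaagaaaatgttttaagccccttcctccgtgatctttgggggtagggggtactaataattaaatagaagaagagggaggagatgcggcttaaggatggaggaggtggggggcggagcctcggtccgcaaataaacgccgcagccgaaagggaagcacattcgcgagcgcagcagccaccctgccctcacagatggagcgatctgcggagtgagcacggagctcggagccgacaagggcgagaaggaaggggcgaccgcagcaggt
The Slc36a4 window holds TGACAG once, on the opposite strand, and the Slc7a8 window does not hold it. Of the 27 tested members with a promoter entry, 10 held TGACAG (37.0%), against 21.6% of all 27025 genes with an entry. The windows of 4 members (14.8%, against 4.51% of all genes) held TGATGNAA, the amino acid response element bound by C/EBP and ATF factors. They were Slc1a4, Slc6a21, Slc7a7 and Slc7a11, the last with 2 matches in its 1 window that held it. The E-box CACGTG was found in 3 (11.1%, against 8.09%) and the Pbx-Hox motif TGATTNAT in 2 (7.41%, against 3.74%). Both strands were searched, and none of the 4 motifs contains another. A gene with several windows counted if any of them held the motif, and the number of windows per gene was not matched. The genes set beside the members include ones that were not tested here. These matches are letters in a window, and binding was not measured.

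The mean log2 signal of 18 hybridization controls, which detect transcripts spiked into each sample, was 14.01 to 14.13 for MLL-ENL and NUP98-NSD1 and 13.18 to 13.42 for HoxA9+Meis1 and HoxA9. The Actb ratio of the 3 prime over the 5 prime probe set, which reflects RNA quality, was 1.18 to 1.43 in the first set of arrays and 1.09 to 1.17 in the second. Comparisons of NUP98-NSD1 with HoxA9 and with HoxA9+Meis1 cross these sets, so set and group cannot be told apart there. Within a set lie MLL-ENL against NUP98-NSD1, and HoxA9+Meis1 against HoxA9. The hematopoietic markers Ptprc, Kit, Spi1, Cd34 and Mpo were above the filter level on every array of MLL-ENL, NUP98-NSD1 and HoxA9+Meis1, and 4 of the 5 were so on every HoxA9 array. The median signal of an array was 440.3 to 660.3, and the number of arrays limits the precision.

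Among the members, 25 were above the filter level on all 10 arrays, and each had an array above it in at least 2 groups. The probe sets that stand for Slc36a4, Slc1a3, Slc3a1, Slc7a11, Slc7a12 and Slc7a13 would not have passed without the group where each was highest. For these members, differences from that group are not independent of the filter. The 16 that did not pass were Slc1a2, Slc1a6, Slc1a7, Slc38a4, Slc38a5, Slc6a3, Slc6a4, Slc6a7, Slc6a11, Slc6a12, Slc6a14, Slc6a15, Slc6a16, Slc7a9, Slc7a14 and Slc7a15. They include the main astrocyte glutamate carrier (Slc1a2) and the dopamine (Slc6a3) and serotonin (Slc6a4) carriers. The third-highest signal, which decides the filter, was 347.2 for Slc7a14, 347.8 for Slc6a4 and 356.7 for Slc7a9 just outside it, and 443.3 for Slc7a13, 463.8 for Slc3a1 and 470.1 for Slc6a5 just inside. Averaged by group, HoxA9+Meis1 cells had the highest level of 16 of the 42 members, HoxA9 cells of 14, the MLL-ENL culture of 8 and NUP98-NSD1 cells of 4. The lowest level fell to the MLL-ENL culture for 15 members, to NUP98-NSD1 and HoxA9+Meis1 cells for 11 each and to HoxA9 cells for 5. The MLL-ENL level is that of 1 array, with the lowest median signal of all (440.3), set against means of 3 clones. These counts were not made for all genes, so they do not set the members apart.

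**Figure D1:**
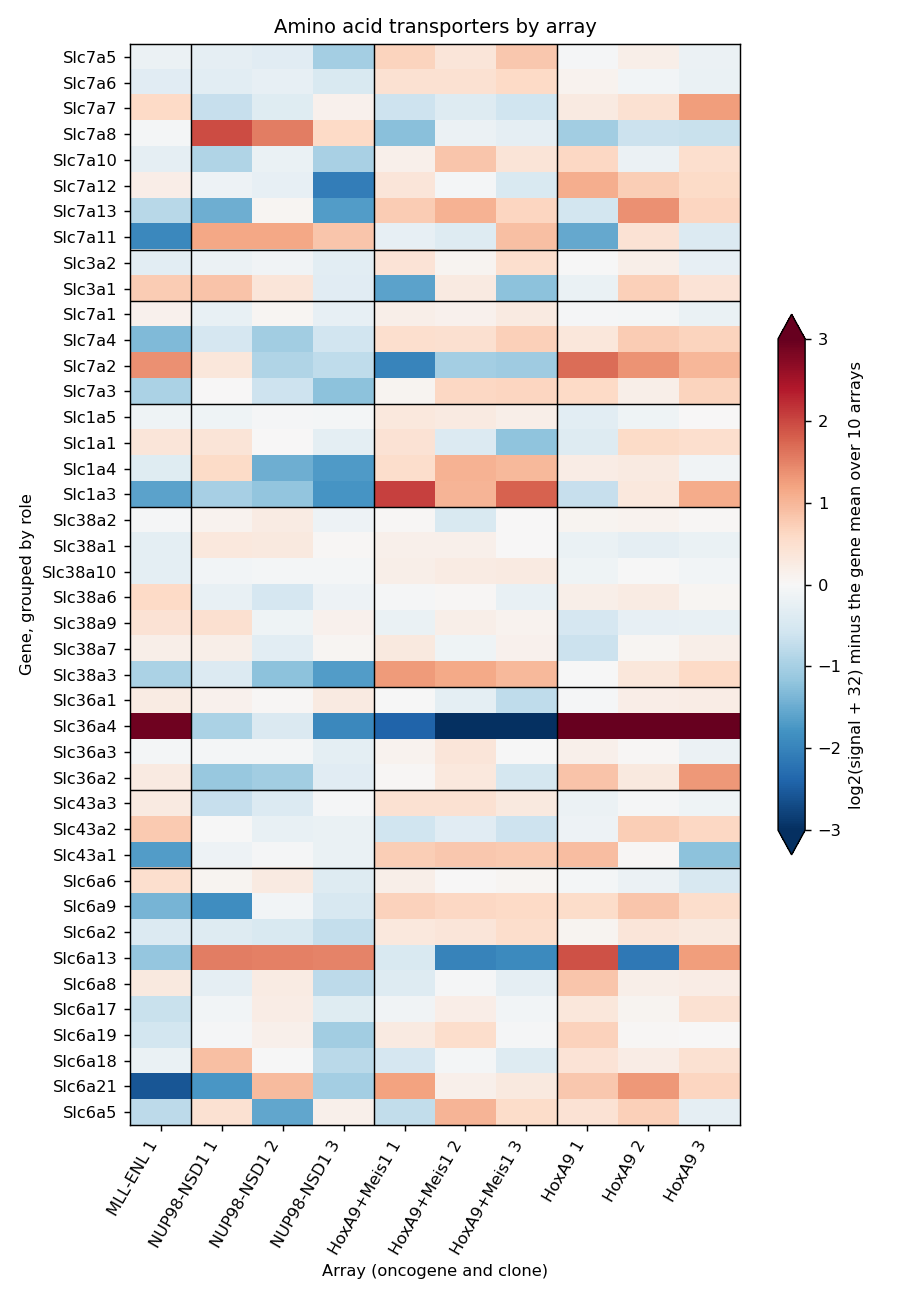
Signal of the 42 tested members (rows) on the 10 arrays (columns, with MLL-ENL, NUP98-NSD1, HoxA9+Meis1 and HoxA9 in turn), as log2(signal + 32) minus the mean of the gene over all arrays, on a colour scale of -3 to 3. The Slc36a4 row has the widest range, with high values in the MLL-ENL and HoxA9 columns only.

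Differences were tested on log2(signal + 32) with limma across all 14235 genes, a fold is a fold of signal + 32, and calls were made where the p-value, after Benjamini-Hochberg adjustment, was under 0.05. In NUP98-NSD1 cells 2 of the 42 members were called higher and 11 lower than in HoxA9 cells. Of all genes 31.5% were called there (13.3% higher, 18.2% lower), so the share of members (31.0%) was close to the background. Against HoxA9+Meis1 cells 3 were called higher and 16 lower in NUP98-NSD1 cells, with 45.2% of the members called and 32.4% of all genes (14.2% higher, 18.2% lower). HoxA9+Meis1 cells had 4 called higher and 4 lower than HoxA9 cells, with 9.67% of all genes called (4.61% higher, 5.06% lower). MLL-ENL had 2 called higher and 1 lower than NUP98-NSD1, with 4.80% of all genes called (1.82% higher, 2.98% lower), and its single array was assumed to vary like the clones. Groups did not overlap for 19, 23, 20 and 23 members in these 4 comparisons, against 46.0%, 46.7%, 31.2% and 58.6% of all genes. In all, 26 members (of 42) were called in at least 1 of the 4 comparisons, as were 45.5% of all genes. These comparisons share arrays, so their counts are not independent of each other.

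The balance of higher and lower calls depended on the scaling. With arrays shifted to a common median, which raised the median difference of all genes by 0.19, 0.15, 0.04 and 0.29 in these 4 comparisons, 3 members were called higher and 5 lower between NUP98-NSD1 and HoxA9, and 4 higher and 8 lower against HoxA9+Meis1. HoxA9+Meis1 against HoxA9 then gave 0 higher and 3 lower, and MLL-ENL against NUP98-NSD1 gave 2 higher and 0 lower. The common median ended the calls of Slc38a6, Slc6a2, Slc6a9, Slc7a3, Slc7a7 and Slc7a12 in the first comparison, of Slc1a5, Slc3a2, Slc38a10, Slc43a3, Slc7a1, Slc7a3, Slc7a10 and Slc7a13 in the second, of Slc1a5, Slc38a1, Slc38a10, Slc7a6 and Slc7a7 in the third and of Slc38a1 in the fourth. With cyclic loess the first comparison gave 3 higher and 7 lower and the second 5 higher and 11 lower. Calls over all 14235 genes moved with the scaling as well. The common median gave 2042 higher and 1126 lower in the first comparison, 2033 and 1288 in the second, and 446 and 313 in the third. For cyclic loess they were 2101 and 2169 in the first and 2217 and 2262 in the second. The median log2 difference of the members was -0.40 between NUP98-NSD1 and HoxA9, against -0.14 for all genes. Of the 26 members dimmer than the median gene, 1 was called higher and 10 lower there (6.58% and 16.7% of all such genes), with a median of -0.98 against -0.40 for all such genes. Among the 16 brighter members 1 was called higher and 1 lower (19.9% and 19.7% of all brighter genes), with a median of -0.02 against -0.01.

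**Figure D2:**
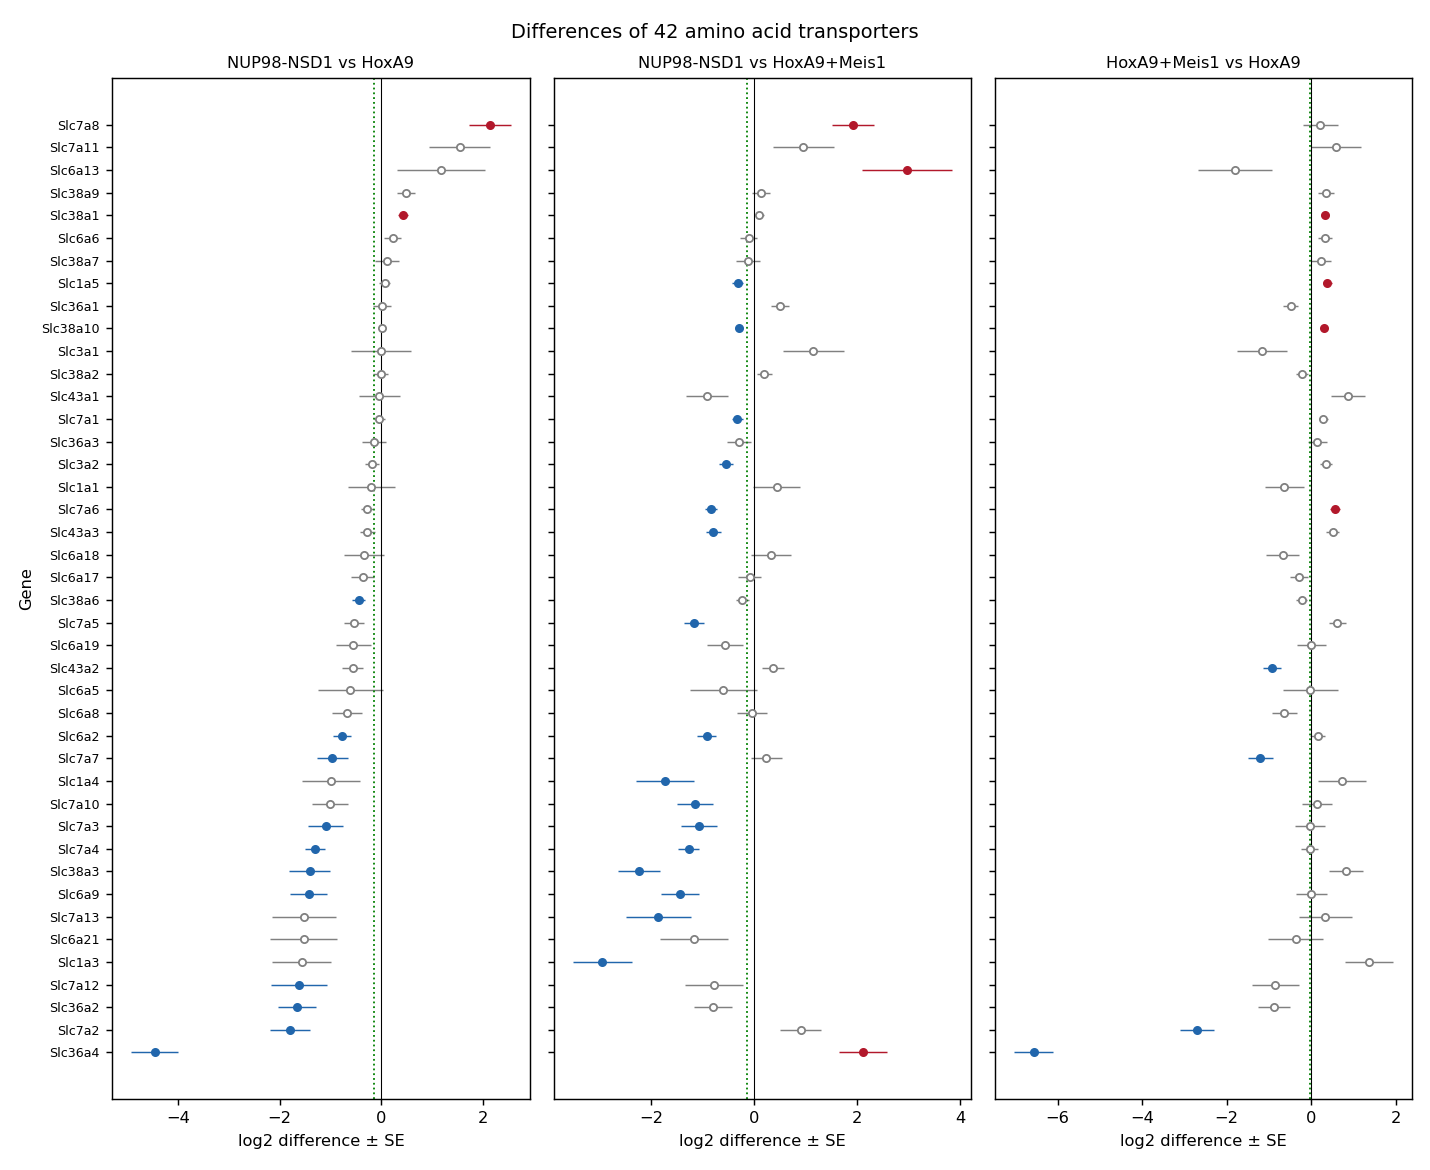
Log2 difference of each of the 42 members in 3 comparisons (panels), with bars of 1 standard error. Red marks members called higher, blue those called lower and open grey those not called, and the green dotted line is the median of all 14235 genes. Slc36a4 lies at -4.46 for NUP98-NSD1 against HoxA9 and at -6.57 for HoxA9+Meis1 against HoxA9.

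The Slc36 family, whose founding members carry small amino acids together with protons, held the gene with the largest difference. Slc36a4, a carrier of proline and tryptophan, had a signal of 5557 in MLL-ENL, 346, 511 and 161 in the NUP98-NSD1 clones, 108, 45.1 and 13.6 in the HoxA9+Meis1 clones and 7462, 7162 and 7790.3 in the HoxA9 clones. The gene was bright in HoxA9 and MLL-ENL and near or below the filter level in the other 2 groups, with no overlap. It fell in HoxA9+Meis1 cells to at least 18.7-fold below HoxA9 (log2 difference -6.57, SE 0.46, limma adjusted p = 3.22e-05). Here and below, "at least" sets each array of the dimmer group that lies under the filter level at that level, whereas log2 differences are as measured. NUP98-NSD1 cells were at least 16.9-fold lower than HoxA9 cells (-4.46, SE 0.46, adjusted p = 1.63e-04), and MLL-ENL was at least 12.6-fold higher than NUP98-NSD1 (4.04, SE 0.66, adjusted p = 0.009). These 3 differences were called under every alternative tried, including each left-out clone. Differences from HoxA9 are not independent of the filter, which this gene would not have passed without the HoxA9 arrays. NUP98-NSD1 was also called above HoxA9+Meis1 (2.11, SE 0.46, adjusted p = 0.00689), but just 1 of these 6 arrays was above the filter level, so no fold is given, and the call was lost with these 2 groups fitted alone. The array reads Slc36a4 with 1 probe set.

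The rest of the Slc36 family behaved differently. Slc36a2, a carrier of glycine and proline, read 780.4 in MLL-ENL, 274, 292 and 498 in NUP98-NSD1, 657, 808 and 439 in HoxA9+Meis1 and 1191, 788 and 1625 in HoxA9. All NUP98-NSD1 values lay below all HoxA9 values, a fall of at least 2.69-fold (log2 -1.66, SE 0.38, adjusted p = 0.00842). Slc36a1, which also works in the lysosome, was brighter and was called in none of the comparisons, with 5336 in MLL-ENL and group means of 4963 ± 427 in NUP98-NSD1, 3568 ± 893 in HoxA9+Meis1 and 4899.9 ± 460.0 in HoxA9 (SD, n = 3 each). Slc36a3 was not called either, with signals of 728 to 1181 over the 10 arrays.

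Among the cationic carriers of the Slc7 family, which move arginine, lysine and ornithine, Slc7a2 followed a similar order of groups. Its signal was 2379.7 in MLL-ENL, 1149, 471 and 517 in NUP98-NSD1, 207, 434 and 414 in HoxA9+Meis1 and 2987, 2346 and 1852 in HoxA9. Every HoxA9 clone was above every clone with NUP98-NSD1 or with added Meis1. HoxA9+Meis1 cells were at least 5.46-fold lower than HoxA9 (log2 -2.70, SE 0.39, adjusted p = 0.00243) and NUP98-NSD1 cells 3.46-fold lower (-1.79, SE 0.39, adjusted p = 0.00736). The log2 difference of MLL-ENL from NUP98-NSD1 was 1.81 and was not called (SE 0.56, adjusted p = 0.0963). The other 2 kept probe sets of Slc7a2 were dimmer, differed downward from HoxA9 in both groups and were not called.

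Slc7a4, a relative of these carriers, had another pattern. Its signal was 707 in MLL-ENL, 1279, 869.8 and 1227 in NUP98-NSD1, 2597, 2567 and 3016 in HoxA9+Meis1 and 2345, 3120.0 and 2935 in HoxA9. It was 2.46-fold lower in NUP98-NSD1 than in HoxA9 (log2 -1.30, SE 0.20, adjusted p = 0.00114) and 2.41-fold lower than in HoxA9+Meis1 (-1.27, SE 0.20, adjusted p = 0.0012), while HoxA9+Meis1 and HoxA9 overlapped. With the probe sets of Slc7a4 averaged, the second call was lost. Slc7a3 had the same order at lower signals, with 367 in MLL-ENL, 752, 468 and 297 in NUP98-NSD1, 788, 1158 and 1169.5 in HoxA9+Meis1 and 1147, 834 and 1201 in HoxA9. Its falls in NUP98-NSD1 were at least 2.00-fold from HoxA9 (adjusted p = 0.0387) and at least 1.95-fold from HoxA9+Meis1 (adjusted p = 0.0425). The first call was lost with each clone left out other than HoxA9+Meis1 clone 1 and NUP98-NSD1 clone 1 (adjusted p up to 0.114), and the second with each other than NUP98-NSD1 clone 1 (up to 0.124). Slc7a1, the common arginine carrier of dividing cells, was bright everywhere (10836 to 15680.5), and it fell 1.25-fold in NUP98-NSD1 from HoxA9+Meis1 (adjusted p = 0.0363). That call was lost without HoxA9 clone 2, any HoxA9+Meis1 clone, or NUP98-NSD1 clone 1 or 3 (adjusted p up to 0.107).

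**Figure D3:**
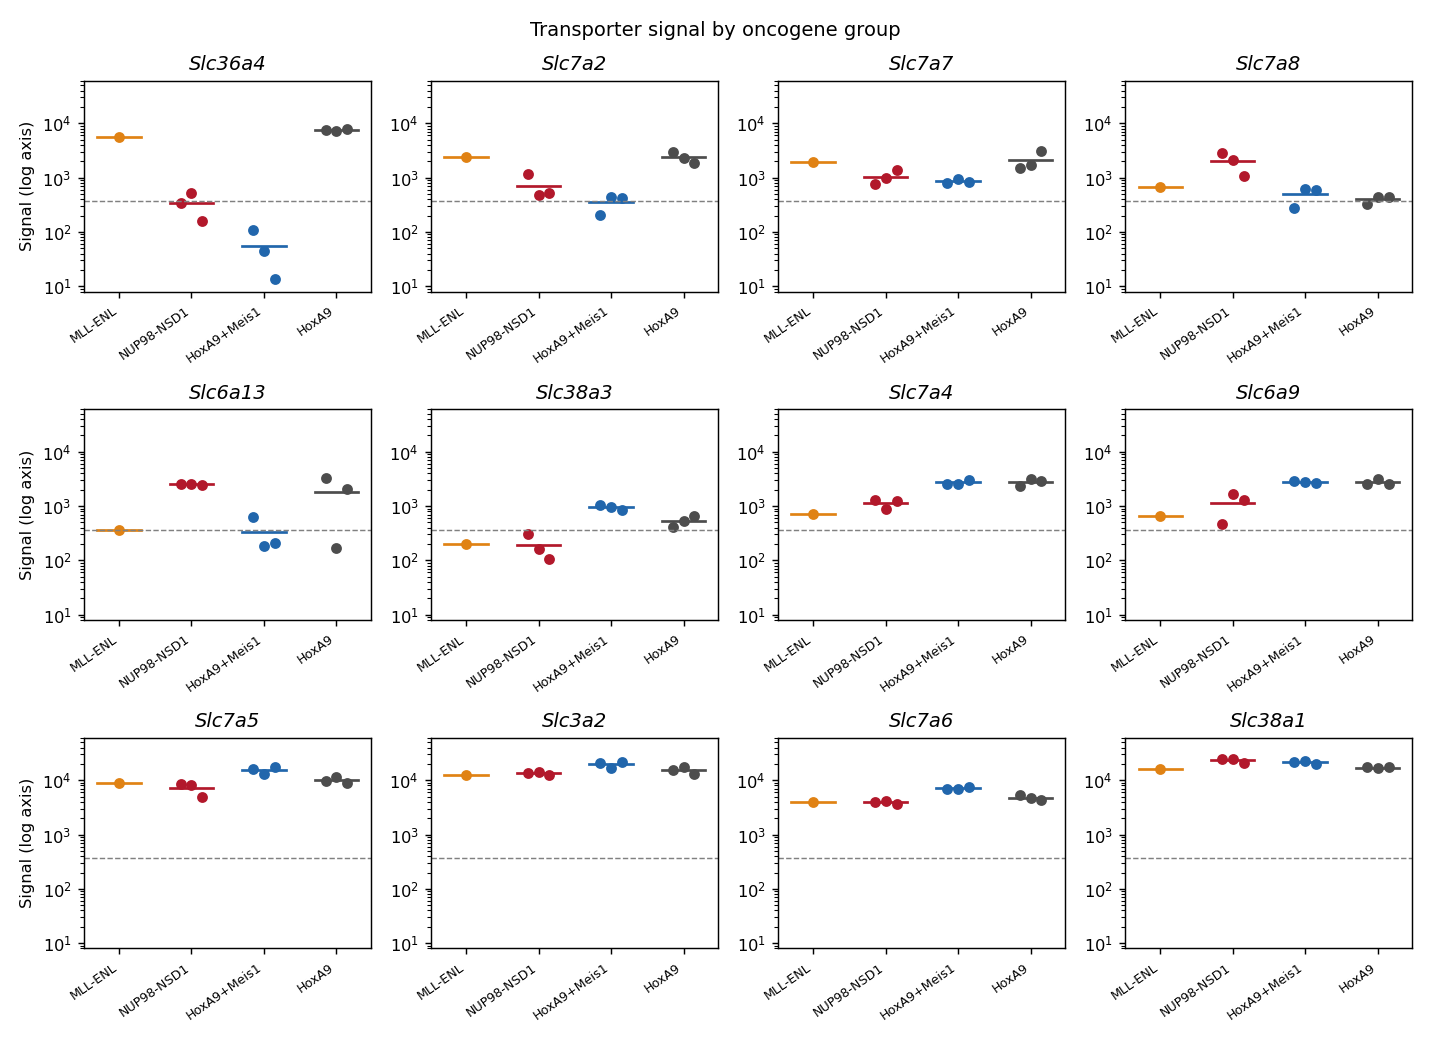
Signal (log axis) of 12 members on each array, with MLL-ENL, NUP98-NSD1, HoxA9+Meis1 and HoxA9 from left to right; points are arrays, lines are group means and the dashed line is the filter level. Slc36a4, Slc7a2 and Slc7a7 have all their HoxA9 points above all HoxA9+Meis1 points, and Slc7a8 has all its NUP98-NSD1 points above those of the other groups.

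The light chains of heteromeric carriers diverged between groups. Slc7a8, which with its heavy chain exchanges neutral amino acids, had signals of 684 in MLL-ENL, 2856, 2117 and 1091 in NUP98-NSD1, 282, 625 and 585 in HoxA9+Meis1 and 329.6, 442 and 437 in HoxA9. All 3 NUP98-NSD1 clones were above all other arrays. Slc7a8 rose in NUP98-NSD1 at least 4.27-fold against HoxA9 (log2 2.15, SE 0.41, adjusted p = 0.00376) and at least 3.50-fold against HoxA9+Meis1 (1.93, SE 0.41, adjusted p = 0.00601), and both calls held under every alternative tried.

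Slc7a7, a light chain that exports cationic for neutral amino acids and is known in macrophages, read 1937 in MLL-ENL, 772, 977 and 1395 in NUP98-NSD1, 808, 955 and 823 in HoxA9+Meis1 and 1526, 1740.4 and 3073 in HoxA9. The HoxA9 clones were above both other clone groups. HoxA9+Meis1 was 2.30-fold lower than HoxA9 (log2 -1.20, SE 0.30, adjusted p = 0.0322) and NUP98-NSD1 1.95-fold lower (-0.96, SE 0.30, adjusted p = 0.034). The other Slc7a7 probe set was called lower in HoxA9+Meis1 as well (log2 -1.87, adjusted p over all probe sets 0.0244), but not in NUP98-NSD1 (-1.01, adjusted p = 0.0981). Leaving out HoxA9 clone 2 or 3, any HoxA9+Meis1 clone or NUP98-NSD1 clone 2 ended the first call (adjusted p up to 0.111), and leaving out HoxA9 clone 2 or 3 or NUP98-NSD1 clone 1 or 2 ended the call for NUP98-NSD1 (up to 0.124).

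The leucine carrier Slc7a5 and its heavy chain Slc3a2 were highest with HoxA9+Meis1. Slc7a5 had signals of 8977 in MLL-ENL, 8401, 8005 and 4950.4 in NUP98-NSD1, 16067, 13074 and 17748 in HoxA9+Meis1 and 9885, 11495 and 8921 in HoxA9. The 3 HoxA9+Meis1 clones were above all other arrays, and NUP98-NSD1 was 2.23-fold below them (log2 -1.16, SE 0.20, adjusted p = 0.00193). HoxA9+Meis1 against HoxA9 gave a log2 difference of 0.62, which was not called (SE 0.20, adjusted p = 0.0795). For Slc3a2, signals were 12455 in MLL-ENL, 13715, 14456 and 12523 in NUP98-NSD1, 20922, 16567 and 22074 in HoxA9+Meis1 and 15551, 17705 and 13208 in HoxA9. NUP98-NSD1 was 1.45-fold below HoxA9+Meis1 (log2 -0.54, SE 0.13, adjusted p = 0.0122), and HoxA9+Meis1 overlapped HoxA9 (0.36, adjusted p = 0.135). The other heavy chain, Slc3a1, which is known from kidney, was dim and not called.

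Slc7a6, a light chain related to Slc7a7, had 3936 in MLL-ENL, 4025, 4221 and 3634 in NUP98-NSD1, 6870.2, 6821 and 7601 in HoxA9+Meis1 and 5343, 4709 and 4334 in HoxA9. HoxA9+Meis1 stood above all other arrays and was called 1.48-fold higher than HoxA9 (log2 0.57, SE 0.12, adjusted p = 0.013). NUP98-NSD1 was 1.79-fold lower than HoxA9+Meis1 (-0.84, SE 0.12, adjusted p = 6.61e-04). Without HoxA9 clone 2 or 3 the rise was not called (adjusted p up to 0.0538). A second Slc7a6 probe set was called in neither comparison (0.47 and -0.25). Slc7a6 and Slc7a7 thus differed from HoxA9 in opposite directions in HoxA9+Meis1 cells.

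Slc7a11, the cystine and glutamate exchanger, was called in none of the comparisons. It would not have passed the filter without NUP98-NSD1, so differences from that group are not independent of the filter. It read 38.8 in MLL-ENL, 570.4, 569 and 449.9 in NUP98-NSD1, 196, 175 and 475 in HoxA9+Meis1 and 61.9, 336 and 171 in HoxA9. The NUP98-NSD1 clones were above the HoxA9 clones and the MLL-ENL array, with a log2 difference of 1.55 against HoxA9 (SE 0.59, adjusted p = 0.0709), and MLL-ENL differed from NUP98-NSD1 by -2.98 (SE 0.84, adjusted p = 0.0745). Slc7a10, a carrier of small neutral amino acids, was at least 2.05-fold lower in NUP98-NSD1 than in HoxA9+Meis1 (adjusted p = 0.03), with 335, 561 and 313 against 723, 1185 and 862, and the call was lost without HoxA9+Meis1 clone 2 or 3 or NUP98-NSD1 clone 1 or 3 (adjusted p up to 0.112). Slc7a13 fell at least 1.23-fold in NUP98-NSD1 from HoxA9+Meis1 (adjusted p = 0.0459), and Slc7a12 at least 1.48-fold from HoxA9 (adjusted p = 0.0482). Neither fall is independent of the filter, which neither gene would have passed without its brighter group. The NUP98-NSD1 clones read 68.7, 258 and 54.6 for Slc7a13, against 443, 544 and 405 in HoxA9+Meis1. For Slc7a12 they read 275, 257 and 48.9, against 693, 535 and 475 in HoxA9. The Slc7a13 call was lost without HoxA9 clone 3, any HoxA9+Meis1 clone, or NUP98-NSD1 clone 1 or 3 (adjusted p up to 0.125). It rests on 1 probe set. The other kept Slc7a13 probe set overlapped between these groups, with 328, 30.9 and 502 in NUP98-NSD1 and 381, 245 and 215 in HoxA9+Meis1. The Slc7a12 call held only without NUP98-NSD1 clone 1 or 2 and was lost with any other clone left out (up to 0.133).

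In the Slc1 family of glutamate and neutral carriers, 3 of the 4 tested members were called lower in NUP98-NSD1 than in HoxA9+Meis1 (18.2% of all genes), and 0 of the 4 were called between NUP98-NSD1 and HoxA9. Slc1a5, the main glutamine carrier of many dividing cells, read 7726 in MLL-ENL, 7684, 8241 and 8084 in NUP98-NSD1, 10440.3, 10059 and 9416 in HoxA9+Meis1 and 6784, 7679.6 and 8525 in HoxA9. It was 1.30-fold higher in HoxA9+Meis1 than in HoxA9 (log2 0.38, SE 0.10, adjusted p = 0.0408), and 1.24-fold lower in NUP98-NSD1 than in HoxA9+Meis1 (-0.32, SE 0.10, adjusted p = 0.0371). With the mean of its probe sets the second value was 0.04. Only without HoxA9 clone 3 or NUP98-NSD1 clone 3 did the first call hold (adjusted p up to 0.145 otherwise), and the second was lost without HoxA9 clone 2, HoxA9+Meis1 clone 1 or 2, or any NUP98-NSD1 clone (up to 0.119). Slc1a4, a related carrier of alanine, serine and cysteine, was at least 1.62-fold lower in NUP98-NSD1 than in HoxA9+Meis1 (log2 -1.72, adjusted p = 0.0402), although 585, 119 and 95.6 overlapped 569, 826 and 787. Leaving out any clone other than NUP98-NSD1 clone 1 ended the Slc1a4 call (adjusted p up to 0.114). The other 2 probe sets of Slc1a4 gave log2 differences of -0.27 and -0.50 (adjusted p = 0.804 and 0.694 over all probe sets), and 5 of 13 other settings lost the call, among them the mean of the probe sets.

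The glial glutamate carrier Slc1a3 had signals of 47.3 in MLL-ENL, 88.8, 73.7 and 38.8 in NUP98-NSD1, 962, 462 and 797 in HoxA9+Meis1 and 118, 269 and 488 in HoxA9. NUP98-NSD1 was at least 1.85-fold below HoxA9+Meis1 (log2 -2.94, SE 0.58, adjusted p = 0.00406). This rests on 1 of its 2 kept probe sets. It is not independent of the filter, which that probe set would not have passed without HoxA9+Meis1. The other gave 0.80 (adjusted p = 0.367) with signals of 215, 111 and 400.3 in NUP98-NSD1 and 70.5, 57.9 and 284 in HoxA9+Meis1. The direction therefore turned under alternatives in which that probe set stood for the gene. Slc1a1 was called in none of the comparisons.

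Sodium-coupled neutral carriers of the Slc38 family include 2 of the brightest members. Slc38a1, a glutamine carrier, read 16132 in MLL-ENL, 24609, 24251 and 20476 in NUP98-NSD1, 22086, 22255 and 19884 in HoxA9+Meis1 and 17204, 16608 and 17415 in HoxA9. On this probe set HoxA9 and MLL-ENL lay below all clones of the other 2 groups. On the second probe set MLL-ENL, at 16585, lay within the NUP98-NSD1 range of 15862 to 17794. The MLL-ENL difference below is that of the first probe set alone. NUP98-NSD1 was 1.35-fold above HoxA9 (log2 0.43, SE 0.09, adjusted p = 0.00551), a call that held under every alternative tried, and both probe sets of the gene were called higher. HoxA9+Meis1 was 1.25-fold above HoxA9 (0.32, adjusted p = 0.0478) and MLL-ENL 1.43-fold below NUP98-NSD1 (-0.51, adjusted p = 0.0471), and these calls were not stable. The first was lost with each clone left out other than HoxA9+Meis1 clone 3 and NUP98-NSD1 clone 3 (adjusted p up to 0.162), and the second with each other than NUP98-NSD1 clone 3 (up to 0.109). Slc38a2, the member induced by amino acid shortage, was not called and read 18639.6 to 30485 over the 10 arrays.

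Slc38a3, a glutamine carrier known from liver, kidney and brain, had 198 in MLL-ENL, 303, 159 and 107 in NUP98-NSD1, 1046, 944 and 843 in HoxA9+Meis1 and 409, 529.9 and 644 in HoxA9. All NUP98-NSD1 values were under the filter level. They were at least 2.43-fold below HoxA9+Meis1 (log2 -2.23, SE 0.40, adjusted p = 0.00249) and at least 1.38-fold below HoxA9 (-1.41, SE 0.40, adjusted p = 0.023). The call against HoxA9 was lost without HoxA9 clone 2 or 3 or NUP98-NSD1 clone 2 (adjusted p up to 0.0826). A second probe set of Slc38a3 overlapped between all groups and was not called, and with both averaged neither call held. Slc38a6 was highest in MLL-ENL at 6163, against 3459, 2868 and 3652 in NUP98-NSD1, a 1.85-fold rise (log2 0.89, SE 0.18, adjusted p = 0.0252). It was 1.36-fold lower in NUP98-NSD1 than in HoxA9 (-0.44, SE 0.13, adjusted p = 0.0279), where the 3 clones read 4541, 4783 and 4201. The Slc38a6 rise was lost without NUP98-NSD1 clone 2 (adjusted p = 0.0546), and the fall without that clone or without HoxA9 clone 1 or 2 (up to 0.0971).

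The probe set that stands for the lysosomal arginine sensor Slc38a9, the brightest of 7, was called in none of the comparisons. Its NUP98-NSD1 signals of 4343, 2833 and 3422 were above the HoxA9 signals of 2175, 2609 and 2664 without overlap (log2 0.49, SE 0.18, adjusted p = 0.0625). Among the other 6 probe sets, 2 were called higher there with p-values adjusted over all probe sets. One of them read 697, 768 and 622 in NUP98-NSD1, 185, 65.4 and 214 in HoxA9+Meis1 and 66.7, 32.5 and 59.2 in HoxA9, so that NUP98-NSD1 was at least 1.81-fold above both (log2 3.12 and adjusted p = 0.00188 against HoxA9, 2.07 and 0.0135 against HoxA9+Meis1). The other called one read 2023, 1737 and 2052 in NUP98-NSD1 and 1039, 1386 and 1473 in HoxA9 (0.58, adjusted p = 0.0381). A dim one was called above HoxA9+Meis1 alone (2.22, adjusted p = 0.0359), another was above HoxA9 without overlap and not called (0.76, adjusted p = 0.111), and 2 probe sets overlapped between NUP98-NSD1 and HoxA9 and gave 0.17 and -0.19. Slc38a7 was not called. Slc38a10 was 1.23-fold higher in HoxA9+Meis1 than in HoxA9 (log2 0.30, SE 0.07, adjusted p = 0.025) and 1.22-fold lower in NUP98-NSD1 than in HoxA9+Meis1 (-0.29, SE 0.07, adjusted p = 0.0124). The rise was not called without any 1 of the HoxA9 or HoxA9+Meis1 clones (adjusted p up to 0.0879). The size of the fall in NUP98-NSD1 from HoxA9+Meis1 varied between Slc38a10 probe sets. Dimmer ones averaged 2675 against 8505 and 1277 against 3201, and a bright one 11201 against 11923. Over other settings its log2 difference was -0.76 to -0.14.

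The Slc43 family had at most 1 call per comparison. Slc43a2, a facilitative carrier of branched-chain amino acids, read 8782 in MLL-ENL, 5008, 4345 and 4399 in NUP98-NSD1, 3359.7, 4019 and 3284 in HoxA9+Meis1 and 4592, 8529.5 and 7893 in HoxA9. HoxA9+Meis1 was 1.90-fold below HoxA9 (log2 -0.93, SE 0.21, adjusted p = 0.0197) without overlap, a call lost without HoxA9 clone 2 or 3 or HoxA9+Meis1 clone 1 or 3 (up to 0.0796). It was also lost in 2 of 14 other settings (limma adjusted p up to 0.0985). The second kept Slc43a2 probe set overlapped between these groups, with 2676, 2759 and 1846 in HoxA9+Meis1 and 2296, 3535 and 3218 in HoxA9. Slc43a3, which in human cells carries purine nucleobases, read 3913, 4759.6 and 6252 in NUP98-NSD1 and 8747, 8769.8 and 7832 in HoxA9+Meis1, a 1.72-fold fall (-0.78, SE 0.15, adjusted p = 0.00386). Slc43a1 read 4141, 2233 and 909 in HoxA9 and was not called.

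Of the 10 tested Slc6 members, which move their substrates with sodium and chloride, 3 were called in at least 1 comparison, against 45.5% of all genes. The glycine carrier Slc6a9 read 651 in MLL-ENL, 468, 1685 and 1274 in NUP98-NSD1, 2903, 2745 and 2701 in HoxA9+Meis1 and 2598, 3196 and 2557 in HoxA9. NUP98-NSD1 was 2.70-fold below HoxA9 (log2 -1.43, SE 0.37, adjusted p = 0.0162) and 2.71-fold below HoxA9+Meis1 (-1.44, SE 0.37, adjusted p = 0.0152). The first of these was not called without HoxA9 clone 2 (adjusted p = 0.0576). The second Slc6a9 probe set was called in neither (0.13 and -0.23), with groups that overlap.

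Slc6a13, which carries GABA and taurine, had 362 in MLL-ENL, 2543, 2515 and 2459 in NUP98-NSD1, 619, 188 and 205 in HoxA9+Meis1 and 3294, 168 and 2077 in HoxA9. The NUP98-NSD1 clones were close together, whereas HoxA9 held both the highest and the lowest array. With 2 of the 3 HoxA9+Meis1 arrays under the filter level, NUP98-NSD1 was at least 5.38-fold above HoxA9+Meis1 (log2 2.97, SE 0.87, adjusted p = 0.0263), and this call was lost without HoxA9+Meis1 clone 2 or 3 or any NUP98-NSD1 clone (adjusted p up to 0.085). Slc6a2, the noradrenaline carrier, read 1161 in MLL-ENL, 1179, 1125 and 929 in NUP98-NSD1, 1949, 1991 and 2229 in HoxA9+Meis1 and 1635, 2008 and 1906 in HoxA9. NUP98-NSD1 was 1.70-fold below HoxA9 (-0.76, SE 0.18, adjusted p = 0.00983) and 1.89-fold below HoxA9+Meis1 (-0.92, SE 0.18, adjusted p = 0.00378). The taurine carrier Slc6a6, the creatine carrier Slc6a8 and the remaining Slc6 members (Slc6a5, Slc6a17, Slc6a18, Slc6a19 and Slc6a21) were not called.

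Probe sets of one gene did not always agree in direction. Of the 21 members with at least 2 kept probe sets, 7 had at least 2 of them called between NUP98-NSD1 and HoxA9, and 2 had calls in both directions. The first was Slc38a10, with 0.34 for a bright probe set and -1.30 and -1.19 for dimmer ones. The second was Slc6a6, with 1.91 and -1.30 for 2 dim probe sets and 0.23 (not called) for the bright one. In the other 3 comparisons no member had probe sets called both ways. Slc38a1 and Slc38a6 had all their kept probe sets called 1 way between NUP98-NSD1 and HoxA9, and so had Slc7a7 between HoxA9+Meis1 and HoxA9. Agreement between probe sets was not counted for all genes, so these counts do not set the members apart. These p-values were adjusted over 30951 probe sets, of which 29.0%, 30.9%, 6.88% and 3.98% were called in the 4 comparisons.

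**Figure D4:**
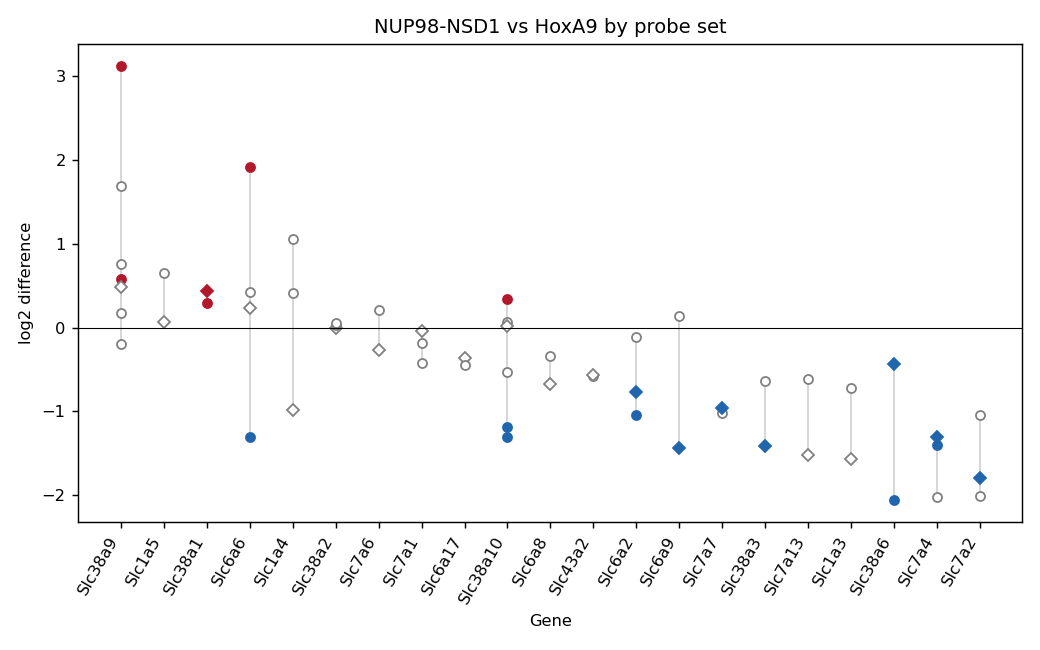
Log2 difference between NUP98-NSD1 and HoxA9 for every kept probe set of the 21 members that have at least 2, with the diamond marking the probe set that stands for the gene and red, blue and open grey for called higher, called lower and not called. Slc38a10 and Slc6a6 have called probe sets on both sides of 0.

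Genes of amino acid use and sensing outside the 7 families were counted from lists chosen by function. Their counts are to be read beside the shares of all genes, which were 13.3% higher and 18.2% lower for NUP98-NSD1 against HoxA9, 14.2% and 18.2% for NUP98-NSD1 against HoxA9+Meis1, 4.61% and 5.06% for HoxA9+Meis1 against HoxA9, and 1.82% and 2.98% for MLL-ENL against NUP98-NSD1. Of 28 tested genes of the amino acid response, which the factor ATF4 drives, 5 were called higher and 3 lower in NUP98-NSD1 than in HoxA9, 4 and 4 against HoxA9+Meis1, 3 and 1 in HoxA9+Meis1 against HoxA9, and 1 and 2 in MLL-ENL against NUP98-NSD1. The serine synthesis enzymes Psat1 (1.93-fold, adjusted p = 0.0175) and Phgdh (1.32-fold, adjusted p = 0.0117) rose in HoxA9+Meis1 against HoxA9. Psat1 averaged 38154 ± 12228 in HoxA9+Meis1 and 19253 ± 3361 in HoxA9 (SD, n = 3 each). Cth, which makes cysteine, fell at least 2.33-fold in NUP98-NSD1 against HoxA9 (adjusted p = 0.0189), and the stress factor Atf3 rose at least 2.50-fold (adjusted p = 0.0043).

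Of 19 cytosolic aminoacyl-tRNA synthetases, which load amino acids onto tRNA, 1 was called higher and 5 lower in NUP98-NSD1 than in HoxA9, and 0 higher and 7 lower than in HoxA9+Meis1. Vars averaged 10562.5 ± 408 in NUP98-NSD1, 19375 ± 804 in HoxA9+Meis1 and 18537 ± 1551 in HoxA9 (SD, n = 3 each), a log2 difference of -0.87 from HoxA9+Meis1 (SE 0.08, adjusted p = 1.11e-04). In HoxA9+Meis1 against HoxA9 limma called 0, with a median log2 difference of 0.17 against -0.02 for all genes. Of 30 genes of amino acid sensing by mTORC1, 4 were called higher and 5 lower in NUP98-NSD1 than in HoxA9, 7 and 4 against HoxA9+Meis1, 2 and 4 in HoxA9+Meis1 against HoxA9, and 1 and 0 in MLL-ENL against NUP98-NSD1. The leucine sensor relative Sesn3 averaged 4419 ± 1540 in NUP98-NSD1, 3526 ± 305 in HoxA9+Meis1 and 894 ± 507 in HoxA9 (SD, n = 3 each). It was at least 5.15-fold higher in NUP98-NSD1 (adjusted p = 0.00252) and at least 4.29-fold higher in HoxA9+Meis1 (adjusted p = 0.0114) than in HoxA9. The Rag GTPase gene Rraga was 2.76-fold lower in NUP98-NSD1 than in HoxA9 (adjusted p = 3.81e-05).

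Of 14 genes of glutathione synthesis and the factor NRF2, 5 were called higher and 1 lower in NUP98-NSD1 than in HoxA9, 5 and 2 against HoxA9+Meis1, 1 and 3 in HoxA9+Meis1 against HoxA9, and 0 and 2 in MLL-ENL against NUP98-NSD1. Gclm, a subunit of the rate-limiting enzyme, averaged 13143 ± 811 in NUP98-NSD1, 3603 ± 761 in HoxA9+Meis1 and 7041 ± 634 in HoxA9 (SD, n = 3 each). It rose 1.87-fold in NUP98-NSD1 against HoxA9 (adjusted p = 0.00182) and fell 1.97-fold in HoxA9+Meis1 (adjusted p = 0.00302). Of 24 enzymes of amino acid metabolism, 2 were called higher and 6 lower in NUP98-NSD1 than in HoxA9, 1 and 6 against HoxA9+Meis1, 3 and 3 in HoxA9+Meis1 against HoxA9, and 3 and 0 in MLL-ENL against NUP98-NSD1. Gatm and Gamt, which together make creatine, were both lower than in HoxA9 in NUP98-NSD1 (12.5-fold and at least 5.24-fold, adjusted p = 0.0405 and 2.42e-04) and in HoxA9+Meis1 (adjusted p = 0.0212 and 0.00461, with a 3.35-fold fall of Gamt). No fold is given for Gatm in HoxA9+Meis1, where 2 of the 3 arrays were under the filter level and the third was far above it. Gatm had 15924 in MLL-ENL, 1447 ± 152 in NUP98-NSD1, 2237 ± 3669 in HoxA9+Meis1 (58.3 to 6473) and 18355.5 ± 690.2 in HoxA9 (SD, n = 3 each). Gamt had 2552 in MLL-ENL, 418 ± 144 in NUP98-NSD1, 725 ± 90.8 in HoxA9+Meis1 and 2523 ± 486 in HoxA9. Bcat1, which transaminates branched-chain amino acids, was 4.82-fold higher in HoxA9+Meis1 than in HoxA9 (adjusted p = 0.00278), with 8296 ± 817 against 1822 ± 790 (SD, n = 3 each).

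Among 16 other carriers of amino acids, peptides and amines, 3 were called higher and 2 lower in NUP98-NSD1 than in HoxA9, 4 and 5 against HoxA9+Meis1, 3 and 0 in HoxA9+Meis1 against HoxA9, and 3 and 2 in MLL-ENL against NUP98-NSD1. The vesicular monoamine carrier Slc18a2 averaged 2006 ± 1617 in NUP98-NSD1, 230.3 ± 115.7 in HoxA9+Meis1 and 296 ± 78.3 in HoxA9 (SD, n = 3 each), and was at least 3.72-fold above either (adjusted p = 0.0188 against HoxA9+Meis1 and 0.0389 against HoxA9). The aromatic amino acid carrier Slc16a10 was 2.09-fold lower in NUP98-NSD1 than in HoxA9 (adjusted p = 0.00108). The mitochondrial aspartate and glutamate carrier Slc25a13 was 2.11-fold higher in HoxA9+Meis1 than in HoxA9 (adjusted p = 0.0129).

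Markers of mature cells differed between the groups. The summed signal of 7 neutrophil markers was 17983 in MLL-ENL, 428376 to 917324 in NUP98-NSD1, 9914 to 94374 in HoxA9+Meis1 and 14998 to 64376 in HoxA9. That of 6 mast cell and basophil markers was 2931 in MLL-ENL, 56488 to 231384 in NUP98-NSD1, 12449 to 23042 in HoxA9+Meis1 and 5493 to 10116 in HoxA9. Of the neutrophil markers, 3 were above the filter level on every array of MLL-ENL, 6 of NUP98-NSD1, 6 of HoxA9+Meis1 and 5 of HoxA9, and of the mast cell and basophil markers 4, 5, 1 and 3. The neutrophil gene Camp averaged 35012 in NUP98-NSD1 (6798 to 91350), against 67.4 in HoxA9+Meis1 and 53.4 in HoxA9. Mmp9, of the same list, overlapped, with 269 to 1913 in NUP98-NSD1, 578 to 883 in HoxA9+Meis1 and 793 to 885 in HoxA9. The summed levels moved with each NUP98-NSD1 difference given above, and their part in it was not tested. Between HoxA9+Meis1 and HoxA9 the neutrophil sums overlapped, but 3 of the 7 markers did not. S100a9 was 1708 to 36682 in HoxA9+Meis1 and 69.2 to 793 in HoxA9, Ngp 1688 to 11961 and 1082 to 1403, and Mmp8 2260 to 10186 and 377 to 831. The progenitor marker Cd34 was 48216 to 50766 in HoxA9+Meis1 and 93.9 to 1845 in HoxA9. The mast cell and basophil sums did not overlap either, and Mcpt8 was the largest part of both (means of 13822 and 5072). Hdc, Ms4a2 and Tpsb2 averaged lower in HoxA9+Meis1, Cpa3 and Fcer1a averaged higher, and all of these overlapped. The levels of S100a9, Ngp, Mmp8, Cd34 and Mcpt8 moved with the differences between HoxA9+Meis1 and HoxA9, and their part in them was not tested. The monocyte and macrophage sums were 18652 to 49951 against 17969 to 27469.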

How the data were processed

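RNA from 10 cultures, grouped by the oncogene in their labels, was read on Affymetrix Mouse Genome 430 2.0 arrays. Linear intensity values of 45101 probe sets were taken as deposited, and 0 value columns lack a sample. Their software is not given in the sources used here. These values had been scaled: without the top and bottom 2% of probe sets, the mean of each array is 2500.01 to 2500.02.

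Probe sets above the filter level on at least 3 arrays were kept, and the kept probe set with 1 symbol and the highest mean log2 value stands for a gene. Symbols came from the platform annotation, updated by Entrez ID through RefSeq genes for 34741 probe sets; 34945 carry 1 symbol, 932 several and 9160 none. limma 3.58.1 in R 4.3.3 fitted 4 group means to log2(signal + 32), with eBayes (trend on mean intensity, 6 residual degrees of freedom), and p-values were two-sided and adjusted over 14235 genes. No 2 arrays held over 50% equal values. In simulated data with 14235 genes, 100 were changed by a log2 size of 1 and 100 by a log2 size of 2. A log2 change of 1 was recovered for 48% of changed genes in NUP98-NSD1 against HoxA9, 42% in NUP98-NSD1 against HoxA9+Meis1, 49% in HoxA9+Meis1 against HoxA9 and 26% in MLL-ENL against NUP98-NSD1, and a log2 change of 2 for 72%, 69%, 83% and 54%. Fewer genes were changed in the simulation than were called in any of the 4 comparisons. That affects the adjustment of p-values, so these shares may not hold for the data.

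The members and lists were chosen with earlier results of these data known. Any member could be named; values on every array were for members called with at least a 2-fold difference or groups that do not overlap, and pathway lists could name up to 4 called genes per comparison, the largest without overlap. The folds written as "at least", 2 of the motifs (TGACAG and TGATTNAT) and the promoters shown were chosen after values were seen. Promoters matched by symbol for 27 of 42 members. Alternatives were other scalings, offsets, filters and choices of probe set, other eBayes settings, fits of fewer groups, the clone number as a block, and each clone left out. Plots used matplotlib 3.10.9 in Python 3.11.15.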

Additional observations from a re-analysis of the deposited data

How the results depend on the processing

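Over the called differences of single members, 775 values under alternatives kept direction and call, 197 kept direction but were no longer called and 4 reversed. Arrays shifted to a common median, for which the calls over all genes are given above, left 8 members called between NUP98-NSD1 and HoxA9 (13 as reported), 12 between NUP98-NSD1 and HoxA9+Meis1 (19) and 3 between HoxA9+Meis1 and HoxA9 (8). The last count was 5 with probe sets averaged per gene and 3 with eBayes without a trend. With each clone left out in turn the counts were 9 to 14 for NUP98-NSD1 against HoxA9, 12 to 19 for NUP98-NSD1 against HoxA9+Meis1, 3 to 10 for HoxA9+Meis1 against HoxA9 and 1 to 4 for MLL-ENL against NUP98-NSD1. The second was 12 without HoxA9+Meis1 clone 2 or NUP98-NSD1 clone 3. The third was 3 without HoxA9 clone 2, HoxA9 clone 3 or HoxA9+Meis1 clone 1, 4 without HoxA9+Meis1 clone 2 or 3, and 5 without NUP98-NSD1 clone 2. The fourth was 1 without NUP98-NSD1 clone 2. Slc1a3 between NUP98-NSD1 and HoxA9+Meis1 turned to 0.82 with quantile normalization, 1.01 with an offset of 1 and 0.80 without suffixed probe sets, since another probe set then stood for the gene, and Slc1a5 to 0.042 with its probe sets averaged. The labels tie no animal or day to a clone number, and same-numbered clones did not deviate together (r -0.07 to 0.04 over 9 pairs, against -0.06 to 0.07 over 18 pairs of other numbers). With the replicate block the counts were 11, 14 and 6 for the 3 replicated comparisons, and MLL-ENL, with 1 array, had no such fit. MLL-ENL has 1 array and no spread of its own, and no detection call was used, so the filter level stands in for signal over background.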
